A study of Mus musculus with 4 samples.

Results

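The genes described here are 45 genes of DNA replication, mitosis and cell cycle control, chosen by name and read in cardiac Sca-1 cells of mice with heart failure (Cyc) and of healthy mice (Wt). They were grouped as 13 genes of DNA replication, 18 genes of mitosis, 12 cyclins and inhibitors of cyclin-dependent kinases, and 2 transcription factors. Of the 45 genes, 44 were found by their own symbol among 45037 probe sets, with 105 probe sets in all, and Ccnb1 is not analysed here because no probe set carried its symbol alone. Testing required 2 or more of the 4 arrays to read at least 50, which 65 of these probe sets and 38 of the genes did, out of 10315 tested genes with a symbol of their own. Tyms, Gins2, Bub1b, Cenpe, Kif20a and Foxm1 were too dim to be tested.

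Cyc mice are FVB mice aged 6 weeks with αMHC-CyclinT1 and Gαq transgenes, and the Wt mice were of the same strain and age without transgenes, both of either sex. The comparison asks which genes differ between Sca-1 cells of failing and of healthy hearts. The αMHC promoter drives the transgenes in cardiomyocytes, so the sorted Sca-1 cells are neighbours of the transgenic cells and not their main target. Each array held RNA from 1 pool of freshly isolated cells from several hearts, with 2 pools per genotype, and replicates 1 and 2 of both genotypes were taken as experiments 1 and 2. Affymetrix Mouse 430 2.0 arrays cover a transcript's 3′ part, often by more than 1 probe set. As intensities depend on the probes, levels are compared between pools and not between genes.

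Of the 7 probe sets that carry the symbol of Gnaq, the gene of Gαq, alone in the annotation used, 1 was at least 2-fold higher in Cyc cells with an unadjusted p under 0.05, reading 723.6 and 492.3 in Cyc against 22.7 and 4.1 in Wt pools (limma, adjusted p = 1). The sorted antigen's gene Ly6a had intensities from 10561.6 to 14050.6 over the 4 pools. All 8 endothelial, all 7 fibroblast and all 5 smooth muscle and pericyte markers were above 50 in every pool. Intensities of at least 50 were found for 18460 probe sets in the first and 21444 in the second Cyc pool, and for 19442 and 20200 in the Wt pools. With 2 pools per genotype the precision is limited by their number.

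A cell that enters the cycle first loads Mcm helicases onto its origins, makes deoxynucleotides and copies its DNA, and then condenses, aligns and parts its chromosomes. Cyclins switch on cyclin-dependent kinases at each step, and inhibitors such as p21, p27 and p57 hold them off in resting cells. Genes of DNA replication are mostly switched on by E2F factors ahead of S phase, whereas genes of mitosis are switched on later, through promoter elements called CHR (cell cycle genes homology region) and CCAAT boxes. Most cells of the adult heart are not dividing, and mRNAs of mitotic genes are therefore widely used as signs of the few cells that are.

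The promoters of both classes carry different short elements, which are shown for 2 mitotic genes (Cdk1, the kinase that starts mitosis, and Cdc20, an activator of the anaphase-promoting complex) and 2 replication genes (Mcm5 and Mcm6, subunits of the replicative helicase). The 170 bases before the transcription start are given 5′ to 3′ on the strand of the gene, from RefSeq on build GRCm38.p6, at chr10:69352913-69353082 (minus strand) for Cdk1, chr4:118437344-118437513 (minus) for Cdc20, chr8:75109339-75109508 (plus) for Mcm5 and chr1:128359706-128359875 (minus) for Mcm6. Capitals mark elements on either strand, which are the CHR form TTTGAA, the CHR form TTCGAA, the CCAAT box, and the E2F forms TTTGGCGC, TTTCGCGC, TTTCCCGC and TTTGCCGC.
Cdk1: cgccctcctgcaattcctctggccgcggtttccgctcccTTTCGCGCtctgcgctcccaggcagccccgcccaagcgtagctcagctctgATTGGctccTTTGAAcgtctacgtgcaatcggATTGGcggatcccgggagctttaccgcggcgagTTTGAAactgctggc
Cdc20: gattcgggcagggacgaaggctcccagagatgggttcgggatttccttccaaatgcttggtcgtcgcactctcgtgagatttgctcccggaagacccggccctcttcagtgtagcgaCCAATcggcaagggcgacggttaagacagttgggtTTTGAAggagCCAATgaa
Mcm5: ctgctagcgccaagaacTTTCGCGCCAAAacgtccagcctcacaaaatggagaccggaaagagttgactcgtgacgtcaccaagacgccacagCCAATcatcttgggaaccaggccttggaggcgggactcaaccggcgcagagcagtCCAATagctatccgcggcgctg
Mcm6: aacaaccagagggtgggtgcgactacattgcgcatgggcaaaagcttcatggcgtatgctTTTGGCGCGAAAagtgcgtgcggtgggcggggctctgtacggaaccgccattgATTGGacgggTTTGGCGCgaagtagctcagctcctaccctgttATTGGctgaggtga
Cdk1 had CHR elements starting 71 and 15 bases before the start, each near a CCAAT box (80 and 48 bases before it), and Cdc20 had a CHR element at 18 and CCAAT boxes at 53 and 8 bases before it. Mcm5 and Mcm6 had no CHR element in the window. The capitals of Mcm5 that start 153 bases before the start are 2 overlapping E2F matches, 1 on each strand, and Mcm6 has the same arrangement at 110 bases and a further match at 47 bases.

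A window from 250 bases before to 50 bases after the start was at hand for 34 of the 45 genes. CHR and CCAAT stood together in the windows of 12 of 15 mitotic genes (80.0%), of 2 of 11 replication genes (18.2%) and of 1 of 7 cyclins and inhibitors, against 8.61% of 27025 genes with a window and 6.23% of the tested genes. An E2F match was found in 6 of 11 replication genes (54.5%) and in 1 of 15 mitotic genes (6.67%), which was Cdk1, against 2.6% of all genes with a window and 4.87% of the tested genes. CCAAT boxes were frequent in both, with 13 of 15 mitotic and 8 of 11 replication genes, against 41.1% of all genes. These are matches of letters in a window and not measured sites.

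Mitotic genes lay higher in Cyc than in Wt cells, mainly in experiment 1. In that experiment all 15 tested mitotic genes were higher in Cyc cells, with a median log2 difference of 1.14, and 9 of them were at least 2-fold higher, against 1.11% of all tested genes. In experiment 2 the Cyc value was above the Wt value for 14 of the 15, the exception being Nusap1, with a median of 0.29 and no gene at 2-fold, a size that 3.84% of all tested genes reached. The 14 were higher in both experiments, as were 30.8% of all tested genes. Over all tested genes the medians were -0.04 and 0.07. The first Wt pool was under 50, an intensity treated as near background, for 7 of the 15 mitotic genes (Bub1, Plk1, Aurkb, Birc5, Kif11, Nusap1 and Tpx2), so that the size of their differences in experiment 1 depends on background. With all values under 50 set to 50 the mitotic medians were 0.98 and 0.29, and 7 genes were at least 2-fold higher in experiment 1, against 0.679% of all tested genes. Replication genes differed less, with medians of 0.43 and 0.06 over 11 tested genes, and the cyclins and inhibitors fell on either side of 0 in both experiments. In such bulk samples fewer dividing cells and less mRNA per dividing cell cannot be told apart.

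**Figure D1:**
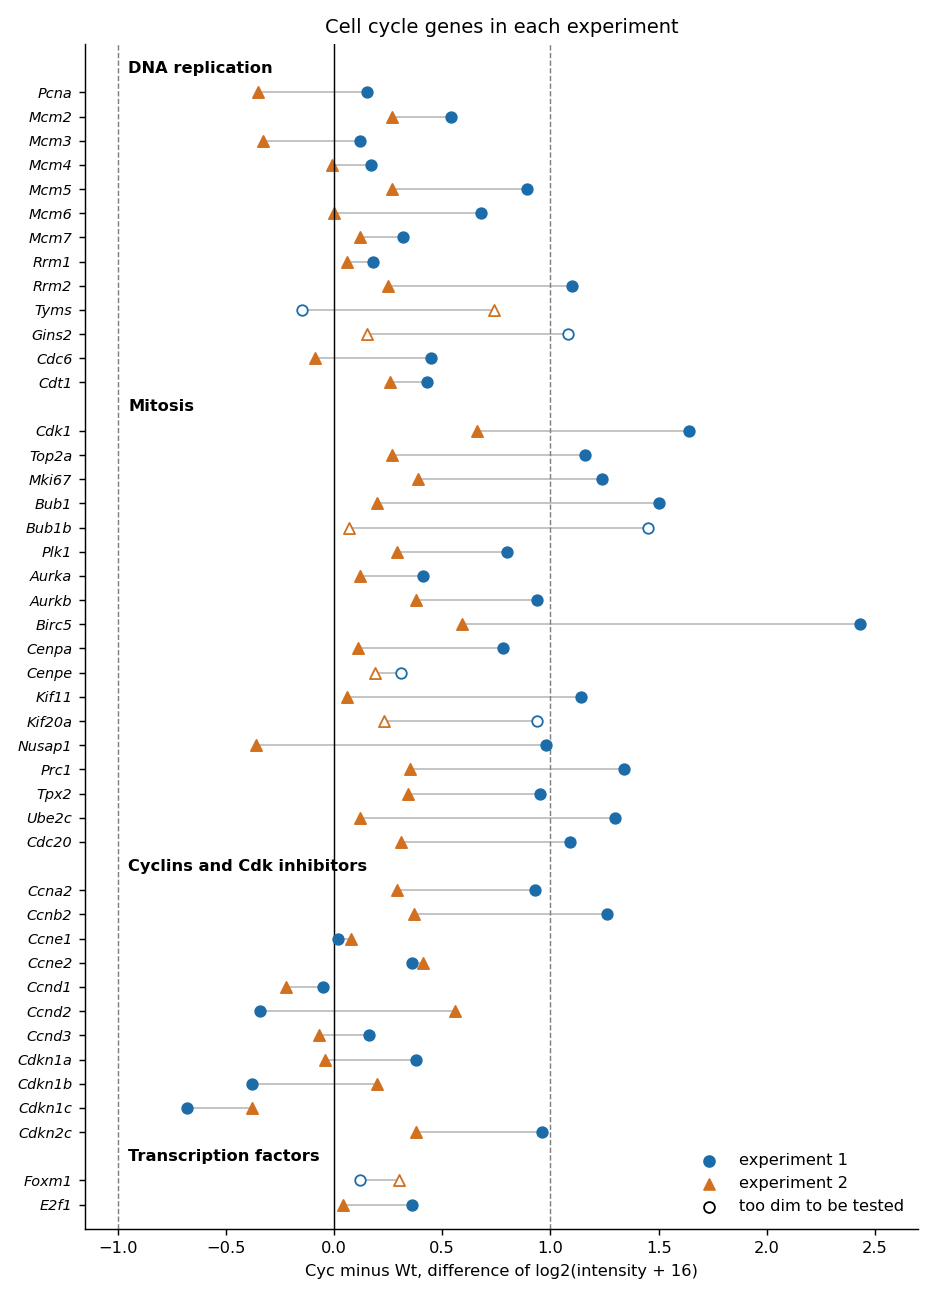
Log2 difference between the Cyc and the Wt pool of each experiment for the 44 measured genes, from log2(intensity + 16) of the brightest probe set. Circles are experiment 1, triangles experiment 2, open symbols genes too dim to be tested, and dashed lines mark 2-fold. Differences of genes with a pool under 50 depend on background, among them that of Birc5 at the far right. Cdk1 has 1.64 in experiment 1 and 0.66 in experiment 2, and replication genes lie closer to 0.

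Single genes were tested with limma on log2(intensity + 16), a scale that understates the fold changes of dim genes, and called at the thresholds of the study, a 2-fold change with an unadjusted p under 0.05. Of the 38 tested genes, 1 was called higher in Cyc cells (Cdk1) and 0 lower, against 1.12% of all tested genes called higher and 0.194% called lower. With the experiment as a block 2 were called higher (Cdk1 and Birc5) and 0 lower, against 1.41% and 0.368%. Every adjusted p of the 38 genes was 1 without the block and 0.663 or more with it, so no gene passed after correction for multiple tests, and the p-values reflect the spread among 4 pools only. At an unadjusted p under 0.05 and any fold, 1 gene was higher (Cdk1) and 0 lower in limma without the block, against 1.95% and 0.359% of all tested genes. Fits that leave out a pool hold 1 array in a group, so calls from them are not counted.

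Cdk1 read 538.6 in Cyc against 161.6 in Wt cells in experiment 1 and 471.3 against 291.8 in experiment 2. Both Cyc pools were above both Wt pools, with means of 505 ± 47.6 and 227 ± 92.0 (SD, n = 2 pools each). Its log2 fold change amounted to 1.15 with a standard error of 0.35 and a 95% confidence interval from 0.25 to 2.06 (limma, unadjusted p = 0.0228, adjusted p = 1). Within the experiments the log2 difference was 1.64 and 0.66. Without the first Wt pool it was 0.76, and with all probe sets tested regardless of intensity the unadjusted p was 0.0531. Cdk1 is named by the study from these same arrays, so its place among the called genes is not independent evidence.

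Birc5, which encodes survivin, a subunit of the chromosomal passenger complex, read 167.1 and 160.9 in Cyc against 18.0 and 101.5 in Wt pools. The Cyc pools were nearly equal and above both Wt pools, of which the first was near background. As 18.0 lies under 50, the log2 difference of experiment 1 has no exact size. It was 2.43 as measured and 1.47 with values under 50 set to 50, and in experiment 2 it was 0.59. The log2 fold change was 1.51 as measured (standard error 0.63, limma, unadjusted p = 0.0639, adjusted p = 1) and 1.03 with values set to 50, where Birc5 passed both thresholds (limma, unadjusted p = 0.0304). With the block the unadjusted p was 0.0159 (adjusted p = 0.665). Cdk1 and Birc5 were the mitotic genes at least 1.5-fold higher in both experiments, which 1.63% of all tested genes were. Aurkb, the kinase of the same complex, had 57.0 and 64.7 in Cyc and 22.2 and 46.1 in Wt pools, so with Wt below 50 only a bound of at least 1.22-fold can be given.

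For 10 of the 15 tested mitotic genes both Cyc pools exceeded both Wt pools, which 18.5% of all tested genes did, and for none were both below. These 10 were Cdk1, Plk1, Aurka, Aurkb, Birc5, Cenpa, Prc1, Tpx2, Ube2c and Cdc20. Aurkb passed the filter on intensity only through its Cyc pools, so its place above Wt was fixed in part by the filter and its count here is a description. Cdc20 had 592.6 and 544.0 in Cyc and 269.0 and 435.5 in Wt pools, a log2 fold change of 0.70 (standard error 0.31). A second tested probe set of Cdc20 read 206.3 and 199.6 in Cyc and 127.3 and 210.3 in Wt pools, so that Cyc was not higher there in experiment 2. Ube2c, the conjugating enzyme of the anaphase-promoting complex, had 285.0 and 249.0 in Cyc and 106.5 and 227.8 in Wt pools, and the pools of experiment 2 were close to each other. Prc1, a protein that bundles the microtubules of the central spindle, had 204.5 and 241.4 against 71.0 and 185.9. The spindle assembly factor Tpx2 had 98.9 and 126.9 in Cyc and 43.5 and 96.9 in Wt pools, and the kinase Aurka, which Tpx2 activates, had 78.7 and 84.2 against 55.0 and 76.0. Plk1, a kinase of mitotic entry and exit, had 76.0 and 80.9 against 36.7 and 63.0, and Cenpa, the histone of centromeres, had 237.6 and 228.4 against 131.8 and 210.6. A second tested probe set of Cenpa overlapped, with 35.4 and 71.6 in Cyc and 39.5 and 67.5 in Wt pools. At the brightest probe set of each of these genes the second Wt pool was closer to the Cyc pools than the first.

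The common markers of proliferation Mki67 and Top2a overlapped between the genotypes and were higher in experiment 2 in both. Mki67, the gene of the Ki-67 antigen, had 206.3 and 526.1 in Cyc and 78.2 and 397.5 in Wt pools, so both pools of experiment 2 were above both pools of experiment 1. Top2a, the topoisomerase that untangles sister chromatids, had 272.7 and 454.7 in Cyc and 113.1 and 373.9 in Wt pools. Within each experiment Cyc was higher, by 1.24 and 0.39 for Mki67 and by 1.16 and 0.27 for Top2a on the log2 scale. With the block their unadjusted p was 0.0237 and 0.0407, and without it 0.381 and 0.297 (limma, adjusted p = 1 without the block). Bub1, a spindle checkpoint kinase, had 88.8 and 108.7 in Cyc and 21.0 and 92.9 in Wt pools.

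Nusap1, a microtubule-binding protein of the spindle, was the tested mitotic gene with opposite directions, with 113.9 and 120.7 in Cyc and 49.9 and 159.2 in Wt pools (log2 differences of 0.98 and -0.36). Kif11, the motor that parts the spindle poles, had 59.2 and 75.9 against 18.2 and 72.2, so that its experiment 2 pools differed by 0.06 on the log2 scale. The dim genes Bub1b, Cenpe and Kif20a read 45.4 or less in all pools, and no direction is read from them.

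For all 15 tested mitotic genes the first Wt pool was the lowest of the 4 pools, as it was for 27.9% of all tested genes, and for all 15 the difference in experiment 1 exceeded that in experiment 2, against 35.8%. With values under 50 set to 50 the latter no longer held for Aurkb, with 0.15 and 0.29. Relative to each gene's own mean over the pools, the median log2 level of these genes was -0.86 in the first and 0.14 in the second Wt pool, and 0.25 and 0.44 in the Cyc pools. The second Wt pool was above the first for all 15 genes, against 69.6% of all tested genes. The median log2 difference between the Wt pools was 0.99, against 0.17 over all tested genes. Between the Cyc pools the median was 0.08, against 0.3 over all tested genes. The second Cyc pool was higher for 10 of the 15 (66.7%), against 75.3% of all tested genes. Both large medians, 0.99 between the Wt pools and 1.14 between the genotypes in experiment 1, share the first Wt pool. Leaving out the first Wt pool gave a median log2 fold change of 0.18 for the mitotic genes and leaving out the second 1.20, against 0.70 with all pools.

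**Figure D2:**
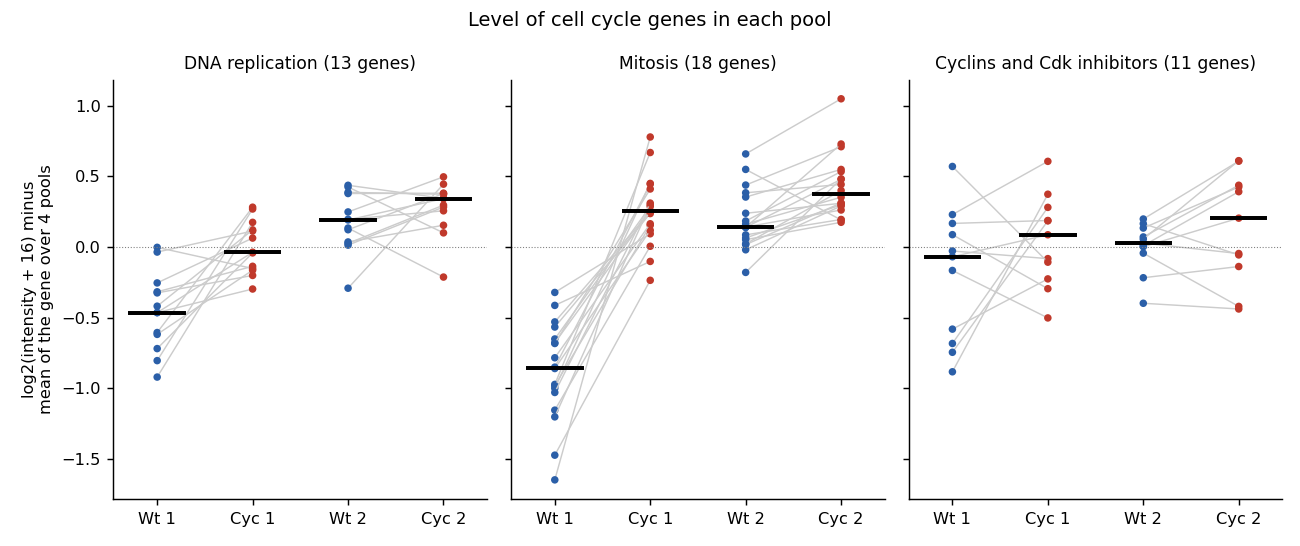
Level of each measured gene in each pool, as log2(intensity + 16) minus the mean of the gene over the 4 pools. Points are genes, grey lines join the Wt and the Cyc pool of 1 experiment, and black bars are medians over genes, including those too dim to be tested. All mitotic genes lie below 0 in the first Wt pool, and the other 3 pools have medians above 0.

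Among the cyclins the A and B types, which act with Cdk1 and Cdk2 from S phase to mitosis, had the pattern of the mitotic genes. Ccnb2 had 203.8 and 213.7 in Cyc and 75.9 and 162.2 in Wt pools, a log2 fold change of 0.81 with a standard error of 0.38 (limma, unadjusted p = 0.0911, adjusted p = 1). Ccna2 had 205.4 and 245.4 against 100.1 and 197.7, with log2 differences of 0.93 and 0.29. For both, the Cyc pools were above both Wt pools. The E cyclins, which act at the entry into S phase, overlapped between the genotypes, and Ccne2 was higher in Cyc by 0.36 and 0.41 while Ccne1 differed by 0.02 and 0.08.

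The D cyclins, which couple growth signals to Cdk4 and Cdk6, were bright and had no common direction. Ccnd1 had 3478.8 and 3543.2 in Cyc and 3612.5 and 4133.5 in Wt pools. It is 1 of 2 members with both Cyc pools below both Wt pools, a position held by 7.48% of all tested genes, but its log2 fold change of -0.14 had a confidence interval from -0.74 to 0.46. Ccnd2 had 1498.8 and 3262.9 in Cyc and 1896.4 and 2214.3 in Wt pools, lower in experiment 1 and higher in experiment 2, and all 7 of its probe sets had these same directions. Ccnd3 had 1171.3 and 1066.8 in Cyc and 1049.7 and 1123.6 in Wt pools, with log2 differences of 0.16 and -0.07.

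The inhibitors went different ways. Cdkn1c, the gene of p57, is the other member with both Cyc pools below both Wt pools, with 2183.9 and 1754.4 in Cyc and 3503.8 and 2283.7 in Wt pools. Its log2 differences were -0.68 and -0.38, with an unadjusted p of 0.159 without and 0.0418 with the block (limma, adjusted p = 1 and 0.704). Cdkn2c, the gene of the Cdk4 and Cdk6 inhibitor p18, had 522.3 and 565.4 in Cyc and 259.9 and 430.0 in Wt pools and was above in both experiments, by 0.96 and 0.38. Cdkn1a, the gene of p21, had 3462.9 and 1669.0 in Cyc and 2662.4 and 1716.9 in Wt pools, so that it was higher in experiment 1 than in experiment 2 in both genotypes. Cdkn1b, the gene of p27, had 1014.6 and 1441.3 against 1327.8 and 1250.6, with opposite directions in the experiments. Over the 11 tested cyclins and inhibitors the median log2 fold change was 0.11, with 8 above and 3 below 0.

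Genes of DNA replication were higher in Cyc cells in experiment 1 for all 11 tested, and in experiment 2 for 7, against 44.8% and 60.5% of all tested genes. At the brightest probe set the Cyc pools were above both Wt pools for 3 of them, Mcm2, Mcm5 and Mcm7, a position held by 18.5% of all tested genes. A second tested probe set of Mcm2 overlapped, with 148.2 and 164.7 in Cyc and 90.3 and 188.8 in Wt pools, so that Cyc was lower there in experiment 2. Another tested probe set of Mcm7 overlapped too, with 267.0 and 335.4 against 208.3 and 309.8. Mcm5 had 566.4 and 572.3 in Cyc and 298.7 and 471.7 in Wt pools (log2 differences of 0.89 and 0.27). Mcm6 had 355.5 and 482.1 against 216.2 and 481.3 at its brightest probe set, so that its pools of experiment 2 were equal within 1 unit there. A second tested probe set of Mcm6 had 304.3 and 363.8 against 156.1 and 299.3, with Cyc higher by 0.9 and 0.27. Over Mcm2 to Mcm7, which form the helicase ring, the median difference was 0.43 in experiment 1 and 0.06 in experiment 2. Mcm7 had 978.4 and 1043.0 in Cyc and 781.9 and 959.7 in Wt pools, and Mcm4 had 391.2 and 632.4 against 346.7 and 638.7. Mcm3 had log2 differences of 0.12 and -0.33, and Mcm2, with 291.5 and 328.0 in Cyc and 195.4 and 269.3 in Wt pools, of 0.54 and 0.27.

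Pcna, the sliding clamp of the replicative polymerases, had 3908.6 and 3114.4 in Cyc and 3523.4 and 3966.5 in Wt pools. The pools overlapped, and its log2 fold change of -0.10 had a confidence interval from -0.76 to 0.56. Rrm2, the subunit of ribonucleotide reductase made in S phase, had 331.2 and 418.1 in Cyc and 146.4 and 349.4 in Wt pools and was the tested replication gene with the largest difference in experiment 1, at 1.10, with 0.25 in experiment 2. Its partner subunit Rrm1, with 297.3 and 395.4 against 260.4 and 378.7, differed by 0.18 and 0.06. The licensing factors Cdc6 and Cdt1 differed by 0.45 and 0.43 in experiment 1 and by -0.09 and 0.26 in experiment 2. Tyms and Gins2 were below 50 in nearly all pools, with 54.5 for Tyms in the second Cyc pool as the single value above it.

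The transcription factors were dim. E2f1 had 79.8 and 56.4 in Cyc and 58.6 and 54.5 in Wt pools. Foxm1, the factor that drives many mitotic genes, had 27.7 and 50.1 against 24.3 and 37.8 at its brightest probe set and was not tested. Its other probe sets were dimmer and had both Cyc pools below both Wt pools, 1 of them with 16.3 and 31.0 against 32.5 and 36.2. No direction is read from Foxm1.

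With the block, 15 tested members had an unadjusted p under 0.05 at their brightest probe set with higher values in Cyc cells and 1 with lower values (Cdkn1c), at any fold, against 4.68% and 1.78% of all tested genes. Of the 15, 10 were mitotic genes, with Aurkb again among them through its Cyc pools, 3 cyclins or inhibitors and 2 replication genes (Mcm5 and Rrm2). This fit has 1 residual degree of freedom, and 1443 probe sets had such a p in it, against 412 without the block. Members share their pools and are not replicates of a genotype. Of 17 tested members with more than 1 tested probe set, 13 had the same direction in all of them. No share over all genes is given for this count, which is a description only.

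**Figure D3:**
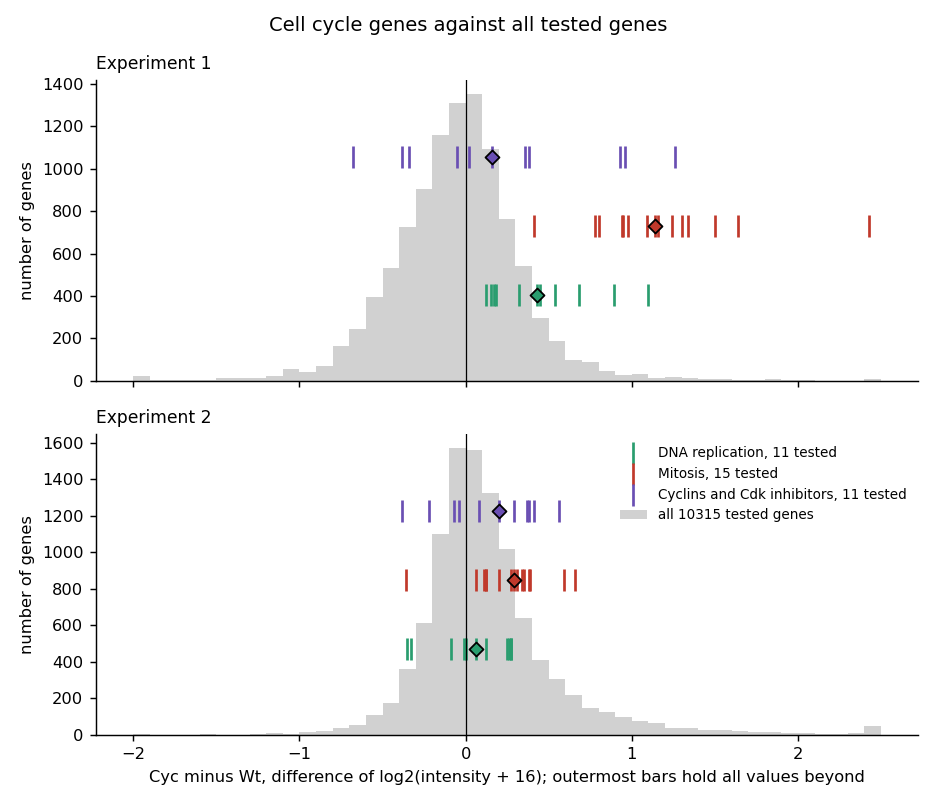
Number of tested genes (grey bars, brightest probe set of 10315 genes) by their log2 difference between the Cyc and Wt pool of experiment 1 (top) and experiment 2 (bottom). Coloured ticks are single replication, mitotic, and cyclin and inhibitor genes and diamonds their medians. The mitotic ticks lie at 0.41 or more in experiment 1, and most of them are within the bulk of all genes in experiment 2.

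Other genes of the same processes were read from lists that do not overlap with the 45. Of 51 further mitotic genes 32 were tested, with median differences of 0.75 and 0.30 in the experiments, and the Cyc pools were above both Wt pools for 19 and below both for 0, against 18.5% and 7.48% of all tested genes. Of 40 further replication genes 35 were tested, with medians of 0.26 and 0.14, and of 34 further regulators 28, with 0.00 and 0.25. The further mitotic gene Espl1 and the replication genes Cdc45, Mcm10, Chaf1b and Ung also passed the filter only through their Cyc pools. Their places above Wt were fixed in part by the filter, and Espl1 is among the 19 mitotic genes counted above. Cks2, a small subunit that binds Cdk1, was the 1 gene of these lists called without the block (1.12% of all tested genes were), with 487.7 and 463.8 in Cyc and 153.1 and 290.3 in Wt pools, close to the log2 differences of Cdk1 at 1.57 and 0.65. A second probe set of Cks2 read 434.9 and 382.8 against 150.1 and 392.7, without a higher value in experiment 2. With the block Cdca8, a further subunit of the chromosomal passenger complex, and Tk1, the thymidine kinase of S phase, were called as well (1.41% of all tested genes were). Tk1 had 87.2 and 96.5 in Cyc and 10.6 and 74.2 in Wt pools. Cdca8 was called at a probe set with 104.2 and 103.6 in Cyc and 12.0 and 76.7 in Wt pools. For both, the first Wt pool was near background, so the size of these differences depends on background. At its brightest probe set Cdca8 had 186.0 and 211.0 against 70.5 and 128.6, below the 2-fold threshold with a log2 fold change of 0.94. None was called lower in either fit.

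Of the 12 genes read brightest in the further lists, 4 from each, Rpa1, Gins4, Hmgb2, Kif22 and Btg1 had both Cyc pools above both Wt pools. This position was held by 18.5% of all tested genes, and the others of the 12 overlapped between the genotypes. Bub3, a checkpoint protein, had 2190.6 and 1902.6 in Cyc and 1949.3 and 1972.8 in Wt pools, and Rpa1, which coats single-stranded DNA, had 1126.0 and 1247.4 against 957.4 and 1044.9. Slbp, which binds histone mRNA, had 1187.6 and 1094.2 against 1043.9 and 1433.4. Tipin, a protein of the replication fork, had 531.4 and 568.7 against 469.1 and 552.9, and Gins4, a subunit of the GINS complex of the helicase, had 517.6 and 511.6 against 488.5 and 439.7. Among the bright mitotic genes Smc4, a condensin subunit, had 730.5 and 965.3 in Cyc and 660.9 and 958.4 in Wt pools, and Hmgb2, a chromatin protein, had 858.8 and 770.2 against 581.0 and 696.1. Kif22, a motor that pushes chromosomes to the spindle's equator, had 887.3 and 899.7 in Cyc and 370.6 and 620.0 in Wt pools, below the 2-fold threshold with a log2 fold change of 0.88. Of the antiproliferative genes, Btg2 overlapped, with 7006.9 and 6582.6 against 7397.8 and 4852.3, Btg1 had 3800.6 and 4107.8 against 3107.9 and 3435.3, and Gas1 had 1995.8 and 2018.2 against 2609.2 and 1494.1. The atypical cyclin Ccng2 had 1356.6 and 1627.4 in Cyc and 1334.3 and 1822.8 in Wt pools.

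The deposited intensities were not normalized again, and the median over all probe sets differed between Cyc and Wt by -0.10 in experiment 1 and 0.06 in experiment 2. Quantile normalization moved these to 0.01 and -0.05. The mitotic medians were then 1.29 and 0.15, with 11 of 15 genes higher in both experiments in place of 14, and the replication medians 0.54 and -0.02. In experiment 2 the replication median lay close to that of all probe sets under each scaling, at 0.06 and 0.06 as deposited and at -0.04 and -0.04 with arrays scaled to equal medians, so its sign follows the scaling.

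Markers of other cell types moved between the pools too, and their part in the values above was not tested. Summed intensities of 7 macrophage markers came to 451 and 1213 in Cyc, to 469 and 219 in Wt pools, those of 3 measured B cell markers to 73 and 249 against 59 and 47, and those of 6 airway markers to 309 and 16346 against 2698 and 127. The large airway sums rest mainly on Scgb1a1 (118.5 and 10194.7 in Cyc, 1783.7 and 3.2 in Wt) and Scgb3a2 (37.0 and 5569.1 against 697.6 and 13.8). Another airway marker, Epcam, had 124.0 and 124.8 against 113.0 and 69.8. Median differences of the macrophage, B cell and airway markers were -0.01, 0.26 and -1.09 in experiment 1, in which the mitotic genes differed most, and 1.76, 1.44 and 2.99 in experiment 2. T and NK cell markers had medians of 0.61 and -0.15, with summed intensities of 193 and 337 in Cyc and 97 and 179 in Wt pools over 5 measured markers, and the 8 endothelial markers -0.21 and -0.12. Fibroblast markers had medians of -0.05 and 0.75, smooth muscle and pericyte markers 0.1 and 0.79, and cardiomyocyte markers -0.25 and -0.36. Neutrophil markers had -0.02 and 0.12, and erythroid markers -0.05 and 0.38. The ratio of 3′ to 5′ actin control signal, a measure of RNA and labelling quality, came to 1.43 and 1.61 in Cyc against 1.27 and 1.76 in Wt pools, lowest in the first Wt pool, and its part in the result was not tested.

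**Figure D4:**
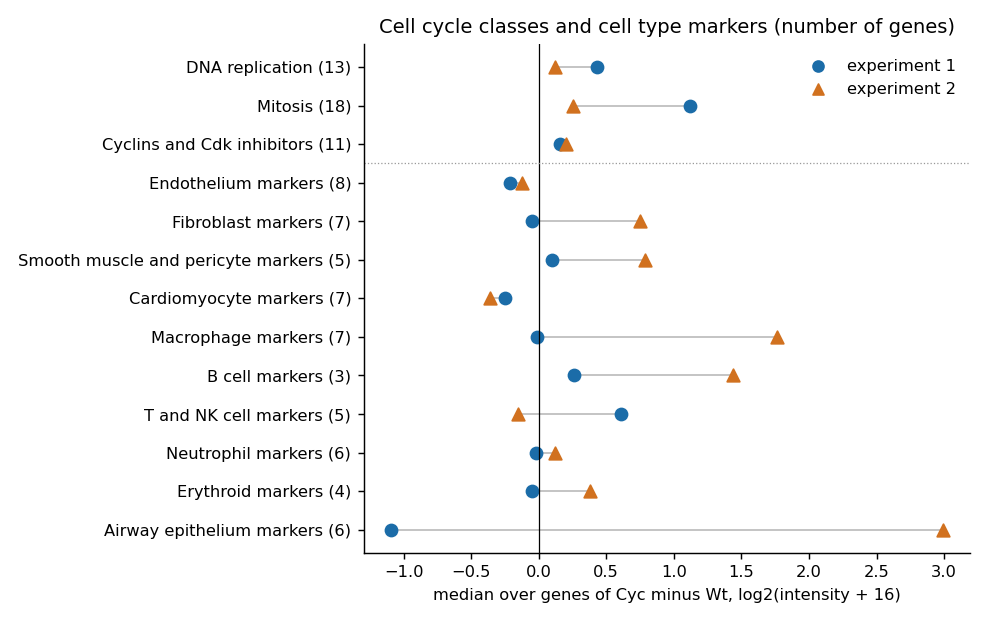
Median over genes of the log2 difference between the Cyc and the Wt pool of experiment 1 (circles) and experiment 2 (triangles), for the cell cycle classes and for markers of cell types, with the number of measured genes in brackets and no filter on intensity. Mitotic genes have 1.12 and 0.25, whereas macrophage, B cell and airway markers are highest in experiment 2.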

How the data were processed

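RNA of 4 pools of Sca-1 cells (2 Cyc, 2 Wt) was measured on Affymetrix arrays. The deposited values are probe set intensities on a linear scale, which the authors normalized in Resolver, with background correction and summary method not given in the sources used here. Negative intensities were set to 0, 16 was added and values were put on a log2 scale. Those with at least 50 on 2 or more arrays, 20680 probe sets, were fitted with limma 3.58.1 in R 4.3.3, with Benjamini-Hochberg adjustment and 2 residual degrees of freedom. The Resolver error model was not run. A gene is shown by its brightest probe set, and counts as called when any of its probe sets passes. Where both Wt pools lay below 50, the fold is a lower bound, the geometric mean of Cyc over 50. In the probe annotation 34945 probe sets have 1 symbol, 932 several and 9160 none.

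The labels mention 2 independent experiments without tying replicate numbers to them. The numbers were taken to mark them, since deviations of same-numbered pools from their group means correlated at 0.447, and added poly-A controls had medians of 258.8 and 231.9 in replicate 1 and of -0.9 and 0.3 in replicate 2. The main fit has no block.

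The genes and lists were chosen with earlier results of these data known. All 45 genes could be named, with values per pool for those called with or without the block, the 4 brightest of each class, those with an unadjusted p under 0.05 and those 1.5-fold higher in both experiments, and other genes were added after their values were seen. Of the further lists the called genes, the 4 brightest and those that passed the filter only through their Cyc pools are named. Motifs were searched in RefSeq windows. The procedure was tested on simulated data. Alternatives were pseudocounts of 1 and 50, no filter, a filter at 100, quantile normalization, median scaling, the replicate block, a variance trend, an unpaired t-test, the mean over probe sets, and leaving out each pool. Setting values under 50 to 50 was added after seeing the data.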

Additional observations from a re-analysis of the deposited data

How the results depend on the processing

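Of the 38 tested genes, 1 was called higher with all pools. The count was 2 with a pseudocount of 50, quantile normalization, median scaling, the replicate block, the replicate block with quantile normalization, and values under 50 set to 50, a setting chosen after seeing the data (Cdk1 and Birc5 each time), 0 with no filter and with an unpaired t-test, and 0 (without Wt replicate 1) to 10 (without Wt replicate 2) when leaving out 1 pool. None was called lower in any setting with all pools. Of the further pathway genes 1 was called higher, with 4 at a pseudocount of 1, 3 with median scaling and with the block, 2 with the block and quantile normalization, 0 with a pseudocount of 50, no filter or the t-test, and 0 to 11 when leaving out 1 pool. Over all probe sets 152 were called higher, 93 with a pseudocount of 50, 47 with the t-test and 117 to 581 when leaving out 1 pool, and 24 lower, 46 with a pseudocount of 1, 37 with no filter, 47 with the block, 48 with the block and quantile normalization, 7 with the t-test and 29 to 1050 when leaving out 1 pool.

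Leaving out 1 pool moved the median log2 fold change of replication genes from 0.22 to between -0.14 and 0.62, of mitotic genes from 0.70 to between 0.18 and 1.20, of cyclins and inhibitors from 0.11 to between -0.0011 and 0.16, of the further replication genes from 0.21 to between -0.0015 and 0.34, of the further mitotic genes from 0.53 to between 0.20 and 0.99, and of the regulators from 0.05 to between -0.16 and 0.26. Averaging over every probe set that reads a gene gave 0.05 for the cyclins and inhibitors. The cause was not tested in any of these, and 2 pools per genotype limit all values. The block changed no other call among the 45 genes.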

Other observations

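The pair of elements that marks mitotic promoters, CHR with CCAAT, was also looked up in genes outside all cell cycle lists. The 484 tested genes of this kind had median log2 differences of -0.03 in experiment 1 and 0.05 in experiment 2, against -0.05 and 0.06 for the 7787 tested genes with a window and without the pair. The 386 genes outside the lists with an E2F match had -0.01 and 0.03.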
